A study of Mus musculus with 8 samples.

Results

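Phospholipase C (PLC) isoforms were followed across arrays of tissue labelled brown adipose tissue (BAT) from mice given sonicated *P. gingivalis*. The 10 genes were *Plcb1*, *Plcb3*, *Plcb4*, *Plcd1*, *Plcd3*, *Plcd4*, *Plce1*, *Plcg1*, *Plcg2* and *Plcl1*, and every non-control probe whose gene name on the array equalled one of these names was taken. This gave 34 probes of the 56605 on the array, for 10 of 37074 gene names. All groups were C57BL/6J mice, 12 weeks old. Co mice (n = 4) received 100 μL of saline intravenously and Pg mice (n = 4) received sonicated *P. gingivalis* in the same volume, and tissue was taken 18 h later. The labels print the dose as 108 CFU, while the study's methods write it with an exponent. A single injection of bacterial fragments models endotoxemia and not a live infection.

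PLC enzymes cut the membrane lipid phosphatidylinositol bisphosphate into inositol trisphosphate (IP3), which releases calcium from internal stores, and diacylglycerol, which activates protein kinase C. The isoforms differ in what switches them on. The β isoforms answer G protein-coupled receptors of the Gq class, the γ isoforms answer tyrosine kinases, the δ isoforms respond to calcium and the ε isoform binds Ras family GTPases. *Plcl1* encodes a PLC-like protein without catalytic activity. In brown adipose tissue, α1-adrenergic receptors signal through this pathway beside the β-adrenergic route to heat production.

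The tissue label was checked against defining markers first. The probes of *Ucp1*, the uncoupling protein of brown adipocytes, and of *Elovl3*, a fatty acid elongase of brown fat, were not well above background on any of the 8 arrays. Of the other brown adipocyte markers, 7 of the 10 listed were well above background on all arrays, among them *Cidea*, *Cox8b* and *Ppargc1a*, as were all 10 adipocyte markers. All 18 skeletal muscle genes of the marker list were well above background on all 8 arrays. Their summed linear signal ranged from 3690000 to 3930000 in Co mice and from 3520000 to 3810000 in Pg mice. This sum says little about the amount of muscle in either group, because 8 of the 18 probes were among the 100 brightest of 56605 on every array, where quantile normalization sets the values alike. The values of *Ucp1*, *Elovl3* and the muscle genes go against the label of brown adipose tissue, and those of the other brown adipocyte markers do not. These are array readings, whereas the study measured *Ucp1* and *Cidea* in BAT by quantitative PCR and reported both lower in Pg mice. The tissue is therefore called here only as it was labelled. *Cox8b* and *Ppargc1a* are also expressed in muscle. In bulk tissue, fewer cells of a type and less RNA per cell cannot be told apart. The 8 arrays shared 1 slide, and since row 1 held Co mice and row 2 held Pg mice, slide row and group cannot be told apart. The Co arrays had 34760 to 35831 probes well above background and the Pg arrays 31132 to 34063, so that the groups did not overlap.

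The probes on which the PLC values turn are shown by their first 30 bases of 60, 5′ to 3′, as the array's design gives them. All 6 probes of *Plcd4* are shown in order along the gene because they differed from each other. The lone *Plcg2* probe, the *Plcg1* probe whose groups did not overlap and the 2 *Plcb4* probes that lay in opposite directions follow.
Plcd4 A_55_P2721360: attaaagatggacggaagagcagggcaaag
Plcd4 A_66_P105314: ctttgcggccagagcagcgttgaaggatac
Plcd4 A_55_P2140696: atgcattacaagcagagggcctgtttctga
Plcd4 A_52_P327588: gaaataactttattggccaatacaccctac
Plcd4 A_55_P2090359: aaaggttgaggaagaatgcctgactcaaaa
Plcd4 A_55_P2090364: ggaatctgatgccctattctgatgtgtctg
Plcg2 A_51_P279163: gtgccttttgaacttccctgttctcagcct
Plcg1 A_55_P2015860: atgtttagtgaccagaacttcttggctcag
Plcb4 A_55_P2631510: cctgatgaagagctgaagaaaaaaggcctc
Plcb4 A_55_P2173333: gagggcagagaagattatgataccatgaag
No run of 20 bases, on either strand, was shared between any of the 34 PLC probes and a probe of another gene on the array. The array's annotation places 5 of the 34 probes across an exon junction, because their genomic span is longer than the probe. Whether a probe lies in coding sequence or in a UTR was not determined here.

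Values are quantile-normalized log2 signals, and a difference is the mean of the 4 Pg arrays minus the mean of the 4 Co arrays, with its standard error (SE) from limma. Of the 34 probes, 31 passed the filter, which asks for 4 or more arrays well above background, and were tested; 28 of them were above background on all 8. The probes left out were A_55_P2735200 of *Plcb1*, above background on 1 Co array, and A_51_P451527 and A_55_P2717962 of *Plce1*, above background on none. In Pg mice, 17 of the 31 probes were higher and 14 were lower, beside 42.3% of all probes higher, with a median difference of 0.02 against -0.04 over all 33819 probes tested. A probe was called when its q was under 0.1 and its fold change above 1.5. By this rule 2 probes were called, *Plcd4* A_52_P327588 lower and *Plcg2* A_51_P279163 higher, which is 6.45% of the tested PLC probes beside 1.61% of all probes tested. In each direction, 0.313% of all probes were called higher and 1.3% lower. Another probe, *Plcg1* A_55_P2015860, had a q under 0.1 with a smaller fold change, so that 9.68% of PLC probes met the q limit beside 7.82% of all probes. Co and Pg values did not overlap for 6 probes, 4 lower and 2 higher in Pg mice, 19.4% beside 15.8% of all probes (4.83% higher and 11% lower). These 10 genes were put forward with calls from this comparison known, so the differences describe the genes and carry no test.

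**Figure D1:**
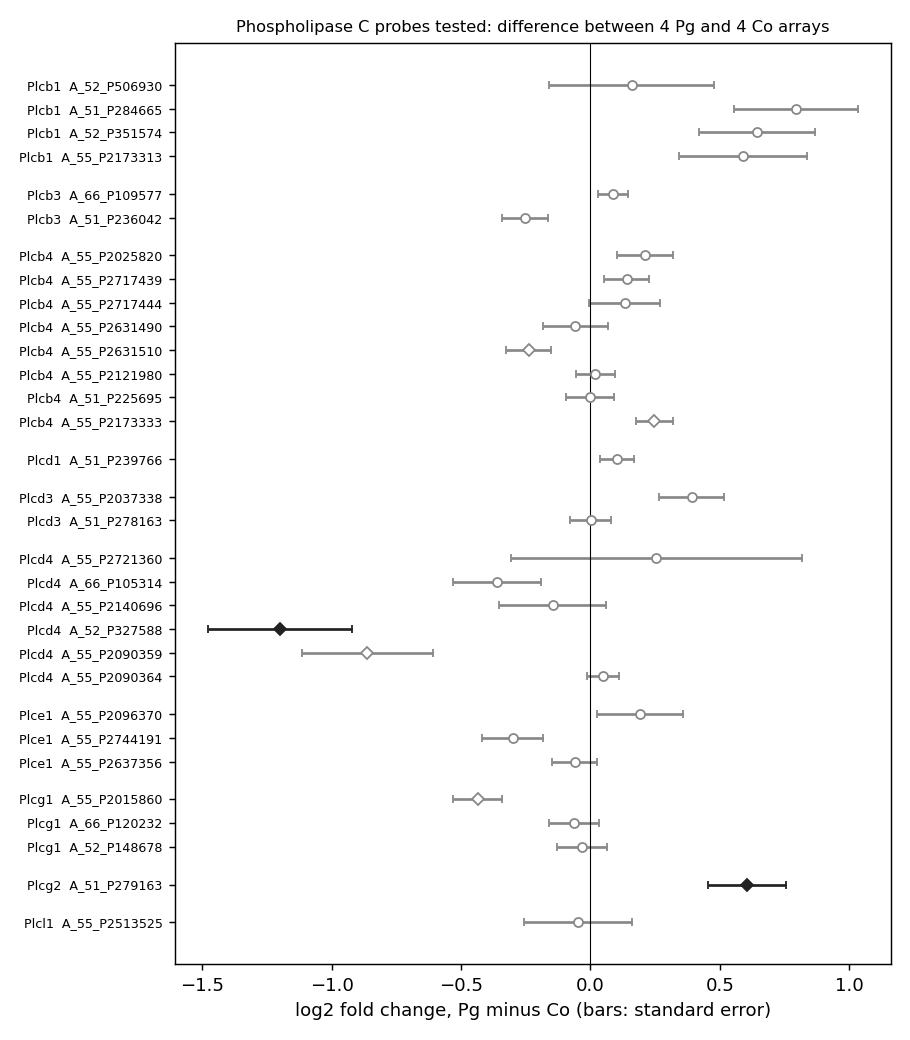
The log2 difference, Pg minus Co, of each of the 31 tested PLC probes is plotted with its standard error (bars), grouped by gene and ordered by position on the chromosome. Filled symbols are the 2 called probes and diamonds are the 6 probes whose Co and Pg values did not overlap, and *Plcd4* spans the widest range, from -1.20 to 0.26.

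The probes of a gene did not always lie in the same direction. Of the 7 genes with more than 1 tested probe, 4 had probes on both sides of 0 (*Plcb3*, *Plcb4*, *Plcd4* and *Plce1*), beside 52.4% of the 7451 genes on the array with several tested probes. All 4 tested *Plcb1* probes were higher in Pg mice, although without Pg mouse 3 they fell on both sides of 0. All 3 *Plcg1* probes were lower, although they too fell on both sides of 0 with the median signal, without normalization and without Co mouse 2, Co mouse 4 or Pg mouse 1. The probes of a gene share their arrays and are not replicates of each other.

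Among the β isoforms, *Plcb1* had the largest differences. Probe A_51_P284665 (chr2:135190506-135190565, mm9, plus strand) read 5.68, 5.84, 5.62 and 6.68 in Co mice 1 to 4 and 6.48, 6.71, 7.02 and 6.77 in Pg mice 1 to 4. Co mouse 4 lay above Pg mouse 1, so the groups overlapped, and the other Co mice lay below every Pg mouse. The difference was 0.79 (SE 0.24), which did not meet the q limit, and it was as low as 0.47 with normexp background correction. Without Co mouse 4 it was 1.03 and the probe was called. The junction probe A_52_P351574 differed by 0.64 (SE 0.22), and A_55_P2173313, the last along the gene, by 0.59 (SE 0.25), with overlapping groups in both. With normexp, A_55_P2173313 differed by 0.33. The fourth probe, A_52_P506930, differed by 0.16 (SE 0.32) and was well above background on 2 of the Pg arrays.

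*Plcb3* and *Plcb4* differed less, and their probes disagreed. For *Plcb3*, A_66_P109577 (chr19:7028280-7028339, mm9, minus strand) read 10.08, 10.15, 10.20 and 10.12 in Co mice and 10.32, 10.18, 10.16 and 10.23 in Pg mice, with overlapping groups and a difference of 0.09 (SE 0.06). Its junction probe, A_51_P236042, differed by -0.25 (SE 0.09). *Plcb4*, which sits on the same chromosome as *Plcb1*, had 8 tested probes with differences from -0.24 to 0.25, of which 5 were higher and 3 lower in Pg mice.

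The 2 *Plcb4* probes whose groups did not overlap lay in opposite directions. Probe A_55_P2173333 (chr2:135840255-135840314, mm9, plus strand), the last along the gene, read 10.22, 10.18, 9.97 and 10.09 in Co mice and 10.34, 10.29, 10.39 and 10.42 in Pg mice, a difference of 0.25 (SE 0.07). Probe A_55_P2631510, whose annotated position spans 3117 bases of the genome (chr2:135772866-135775982), read 6.77, 6.79, 6.67 and 7.01 in Co mice and 6.47, 6.64, 6.65 and 6.52 in Pg mice, a difference of -0.24 (SE 0.09). Every Pg mouse was above every Co mouse in the first and below every Co mouse in the second. Neither reached the fold limit. Over the 18 other settings the first ranged from 0.16 to 0.28, and the second from -0.28 to -0.05, the value nearest 0 coming from the authors' table. The other 6 *Plcb4* probes had overlapping groups.

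**Figure D2:**
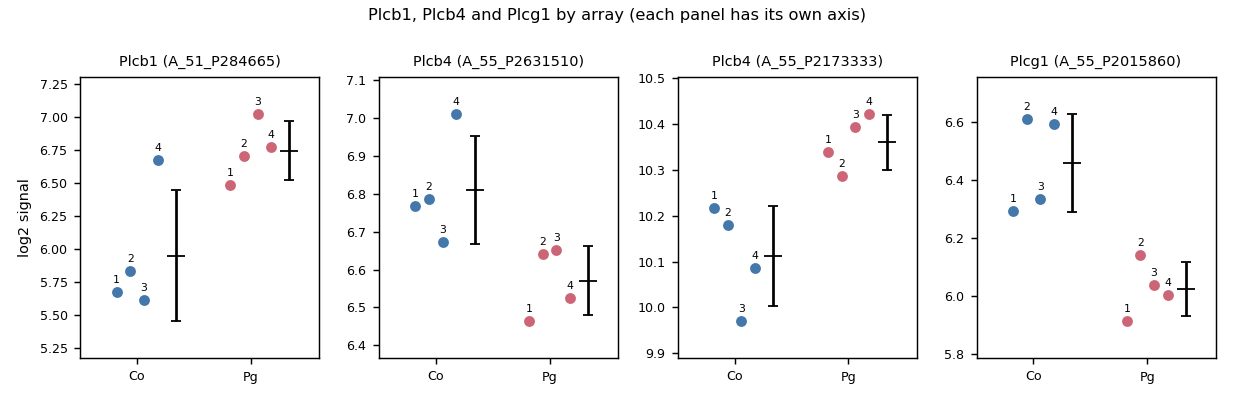
The log2 signal of each array (points, numbered by mouse) is plotted for a *Plcb1*, a *Plcg1* and 2 *Plcb4* probes, with the mean and SD of each group (bar, n = 4) to its right. Co mouse 4 stands with the Pg mice for *Plcb1*, and the 2 *Plcb4* probes separate the groups in opposite directions.

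The γ isoforms act below receptor tyrosine kinases and immune receptors. *Plcg1*, the widely expressed form, had 3 tested probes. Probe A_55_P2015860 (chr2:160587142-160587201, mm9, plus strand) read 6.29, 6.61, 6.33 and 6.60 in Co mice and 5.91, 6.14, 6.04 and 6.00 in Pg mice. Every Pg mouse lay below every Co mouse, and the difference was -0.44 (SE 0.10), a 1.35-fold lower signal, with a difference of -0.49 to -0.27 over the other settings. The other probes showed little of this: A_52_P148678 read 10.08, 10.30, 10.10 and 10.33 in Co mice and 9.999, 10.12, 10.34 and 10.21 in Pg mice, a difference of -0.03 (SE 0.10), and A_66_P120232 differed by -0.06 (SE 0.10).

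*Plcg2*, the form best known from B cells and myeloid cells, was the higher of the called probes. Its lone probe, A_51_P279163 (chr8:120158980-120159037, mm9, plus strand), read 7.61, 7.70, 7.79 and 7.91 in Co mice and 8.20, 8.78, 8.09 and 8.37 in Pg mice. All Pg mice were above all Co mice, Pg mouse 2 being the highest. The difference was 0.61 (SE 0.15), or 1.52-fold, close to the fold limit of 1.5. With a single probe, agreement within the gene could not be examined. The call was lost in 13 of 18 other settings, among them the omission of any array except Pg mouse 3, while the difference stayed between 0.47 and 0.70.

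Immune cell markers were read beside *Plcg2*. All 10 macrophage markers were well above background on all arrays, and their summed linear signal ranged from 9710 to 16500 in Co mice and from 9420 to 30000 in Pg mice. *Lyz2*, the lysozyme of myeloid cells, made up 46.7% to 66.6% of it, and without *Lyz2* the sum was 5180 to 7750 in Co mice and 4310 to 10900 in Pg mice. The Pg mice had the same order in the whole macrophage sum as in *Plcg2*, with mouse 2 highest and mouse 3 lowest, although Pg mouse 3 was the lowest of all 8 arrays in the sum and above all Co mice in *Plcg2*. Of 9 B cell markers on the array, 5 were well above background on all arrays, *Blk* was on none and *Cd79a* was on 1 Co array. Of 6 tested B cell markers, 3 were higher and 3 lower in Pg mice. The B cell sum ranged from 762 to 906 in Co mice and from 772 to 1130 in Pg mice, and without *Cd79b*, a B cell receptor chain, from 701 to 867 and from 695 to 804. Of 10 neutrophil markers, 5 were well above background on all arrays and *Mmp9* and *Ngp* on none, and all 6 tested were higher in Pg mice, with none at a limma q under 0.1. Their summed signal was almost all *Csf3r* (95.2% to 98.6%), and without it ranged from 704 to 818 in Co mice and from 762 to 2620 in Pg mice. *S100a8*, a calcium-binding protein of neutrophils, read 4.56, 5.20, 5.33 and 5.09 in Co mice and 8.59, 8.32, 5.18 and 6.76 in Pg mice, a difference of 2.16 (SE 0.71, limma adjusted p = 0.132), and its partner *S100a9* differed by 2.04 (SE 0.82, limma adjusted p = 0.195). Pg mouse 3 lay among the Co mice in *S100a8* and above them in *Plcg2*. The part of these cells in the *Plcg2* difference was not tested.

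**Figure D3:**
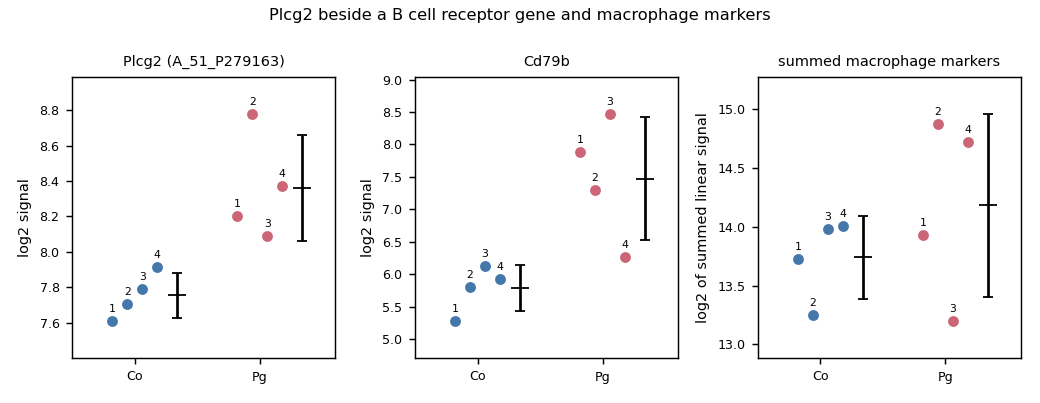
The log2 signal of *Plcg2* and *Cd79b* and the log2 of the summed macrophage marker signal are plotted by array (points, numbered by mouse), with the mean and SD of each group (bar, n = 4). *Plcg2* and *Cd79b* separate the groups, whereas the macrophage sum overlaps between them.

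The δ isoforms respond to calcium. *Plcd1* and *Plcd3* differed little or unevenly. *Plcd1* A_51_P239766 (chr9:118980738-118980797, mm9, minus strand) read 11.73, 11.78, 11.84 and 11.59 in Co mice and 11.80, 11.85, 11.86 and 11.85 in Pg mice, overlapping groups that differed by 0.10 (SE 0.07). *Plcd3* A_55_P2037338 (chr11:102931636-102931695, mm9, minus strand) read 8.02, 8.20, 8.30 and 8.54 in Co mice and 8.88, 8.59, 8.54 and 8.62 in Pg mice, and only Co mouse 4 and Pg mouse 3 met. That probe differed by 0.39 (SE 0.12), and by 0.21 with the authors' table, while A_51_P278163 of the same gene differed by 0.00 (SE 0.08).

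*Plcd4* showed the largest difference of the family, and it was held by neighbouring probes in the 3′ part of the gene. Probe A_52_P327588 (chr1:74611705-74611842, mm9, plus strand, across a junction) read 7.50, 7.64, 7.29 and 7.92 in Co mice and 5.58, 6.40, 6.77 and 6.80 in Pg mice. All Pg mice lay below all Co mice, with Pg mouse 1 the lowest. The difference was -1.20 (SE 0.28), a 2.30-fold lower signal, and this probe was called. Probe A_55_P2090359 (chr1:74612436-74612495) read 8.30, 8.37, 8.11 and 8.79 in Co mice and 6.82, 7.58, 7.93 and 7.78 in Pg mice. Its groups were likewise apart, with Co mouse 4 the highest and Pg mouse 1 the lowest in both probes. It differed by -0.86 (SE 0.25), 1.82-fold lower, and missed the q limit. It met the call in 5 of 17 other settings, among them normexp and the median signal, where *Plcg2* lost its call.

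The last *Plcd4* probe, the brightest of the gene, did not share this difference, and which transcript it reports was not settled here. A_55_P2090364 (chr1:74614298-74614357) read 14.83, 14.76, 14.76 and 14.83 in Co mice and 14.90, 14.72, 14.90 and 14.85 in Pg mice, with overlapping groups and a difference of 0.05 (SE 0.06). Its position lies within the genomic span of a probe of *Zfp142*, a zinc finger gene on the opposite strand (A_51_P508088, chr1:74613875-74615137, minus strand). That *Zfp142* probe read 6.98 to 7.49 in Co mice and 6.42 to 6.63 in Pg mice, a difference of -0.68 (SE 0.11, limma adjusted p = 0.0454). Another *Zfp142* probe nearby, A_66_P101484, read 9.52 to 9.90 in Co mice and 9.32 to 9.62 in Pg mice, overlapping groups that differed by -0.19 (SE 0.10, limma adjusted p = 0.318). Towards the 5′ end, the junction probe A_66_P105314 differed by -0.36 (SE 0.17), A_55_P2140696 by -0.15 (SE 0.21) and A_55_P2721360 by 0.26 (SE 0.56). The groups overlapped for all 3 of these, and A_55_P2721360 exceeded background clearly on 2 Co and 2 Pg arrays. With normexp, A_66_P105314 differed by -0.16.

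The *Plcd4* call depended on the arrays included. For A_52_P327588 it was lost in 9 of 18 other settings, among them the omission of any Co mouse, of Pg mouse 2 or of Pg mouse 4, while the difference stayed between -1.34 and -0.81. Of the skeletal muscle markers, 16 of 18 were lower in Pg mice, with a median difference of -0.08, beside 42.3% of all probes higher. For the brightest of these markers, quantile normalization sets the values alike. Some differences were near 0, such as *Tnni2* at -0.008 and *Ttn* at -0.003. A limma q under 0.1 was met by 1 of the 18, beside 6.25% of all genes. This was *Atp2a1*, the calcium pump of fast muscle fibres, with a difference of -0.44 (SE 0.06, limma adjusted p = 0.0411). Pg mouse 1, the lowest array in *Plcd4*, was the lowest of all 8 in 7 of the 18 muscle genes and not in the others, such as *Atp2a1* and *Tnnc2*. Co mouse 3, the lowest Co array in *Plcd4*, was the lowest Co array in 7 of the 18, and 4 genes shared both features (*Actn3*, *Casq1*, *Myh4* and *Pvalb*). The widest spreads were in 3 genes of fast fibres, named after their values were seen. *Myh4*, a myosin heavy chain, read 11.38 there and 14.38 to 17.07 in the other Pg mice, *Actn3*, an α-actinin, 10.49 against 13.07 to 14.01, and *Pvalb*, a calcium-binding protein, 14.39 against 15.68 to 16.29. Pg mice 2 and 3 were above every Co mouse in these 3 of the 18 genes and below every Co mouse in *Plcd4*. In *Atp2a1*, *Ckm* (-0.15) and *Mb* (-0.15), every Pg mouse lay below every Co mouse, as in *Plcd4* A_52_P327588. The groups overlapped in the other muscle genes. The part of muscle in the *Plcd4* difference was not tested.

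**Figure D4:**
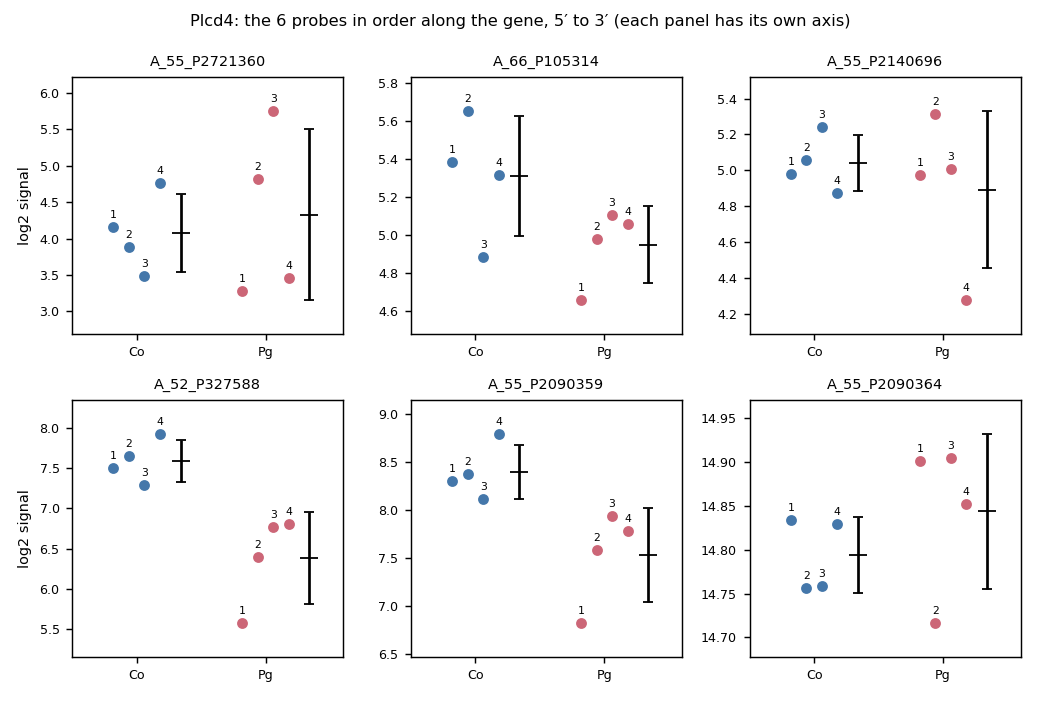
The log2 signal of each array (points, numbered by mouse) is plotted for the 6 *Plcd4* probes in 5′ to 3′ order, with the mean and SD of each group (bar, n = 4). The groups are apart only in A_52_P327588 and A_55_P2090359, and each panel has its own axis.

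*Plce1* and *Plcl1* showed small differences with overlapping groups. *Plce1*, the Ras-regulated form, was represented by A_55_P2637356 (chr19:38857801-38857860, mm9, plus strand), which read 7.99, 8.01, 8.05 and 7.75 in Co mice and 7.85, 7.77, 7.99 and 7.95 in Pg mice, a difference of -0.06 (SE 0.09). Its neighbour A_55_P2744191 differed by -0.30 (SE 0.12) and A_55_P2096370 by 0.19 (SE 0.17). *Plcl1* A_55_P2513525 (chr1:55809685-55809744, mm9, plus strand) read 8.10, 7.99, 7.93 and 8.30 in Co mice and 8.66, 7.64, 7.98 and 7.86 in Pg mice. Pg mouse 1 was the highest and Pg mouse 2 the lowest of all 8 arrays, and the difference was -0.05 (SE 0.21).

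The other PLC family genes were examined with the same fit, a gene standing by its probe of highest mean signal. Of 8 genes, 5 were tested and none was called by limma. All 5 were lower in Pg mice, except that *Plcxd3* was higher with the median signal and with the authors' table and *Plcl2* was higher without Co mouse 2, Pg mouse 3 or Pg mouse 4. At an unadjusted p under 0.05 there was 1 gene, beside 20.3% of all genes tested. *Plcxd2*, a PLC-like gene with only the catalytic X domain, read 5.26, 5.41, 5.44 and 5.37 in Co mice and 4.20, 4.86, 5.18 and 4.62 in Pg mice. The groups did not overlap, and the difference was -0.66 (SE 0.19, limma adjusted p = 0.104). Without Pg mouse 3 it was -0.81 and was called, while the authors' table gave -0.25, normexp correction -0.20 and unsubtracted median signals -0.14, none of them called. *Plch2*, an η isoform, was well above background on all 4 Co arrays and on none of the Pg arrays. With each Pg array raised to at least the dimmest probe well above background, the mean Pg signal was 1.58-fold lower than the Co signal. The measured means were 5.15 and 4.00 (limma adjusted p = 0.256), and the groups overlapped. The measured difference ranged from -1.48 to -0.42 over 17 other settings. The 1.58-fold value became 1.08-fold without Co mouse 1, which read 6.80 beside 4.18 to 4.85 in the other Co mice. *Plcb2*, the form of blood cells, differed by -0.10 (SE 0.08), *Plcxd3* by -0.07 (SE 0.08) and *Plcl2* by -0.03 (SE 0.08). *Plch1*, *Plcxd1* and the sperm form *Plcz1* were not tested because they were above background on too few arrays.

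The wider pathway was followed through 9 lists with 153 genes, of which 141 were tested, 78 being higher and 63 lower in Pg mice. The median difference was 0.01, beside -0.01 over all 22454 genes tested. One gene met the call, *Cd79b*, which is 0.709% of the tested pathway genes beside 1.19% of all genes. A limma q under 0.1 was reached by 7 genes, 4.96% beside 6.25% of all genes, and an unadjusted p under 0.05 by 31 of 141, beside 20.3% of all genes.

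Upstream of PLC γ, *Cd79b*, a signaling chain of the B cell receptor, rose in Pg mice. It read 5.29, 5.81, 6.12 and 5.93 in Co mice and 7.89, 7.29, 8.47 and 6.26 in Pg mice, with Pg mouse 4 nearest to the Co mice. The difference was 1.69 (SE 0.44, limma adjusted p = 0.0867). The call was lost in 10 of 18 other settings, among them the omission of any array except Pg mouse 4, with a difference between 1.08 and 2.10. Of 23 tested genes in this list, 3 had a q under 0.1, 13% beside 6.25% of all genes. *Kdr*, the main endothelial receptor for vascular endothelial growth factor, differed by 0.57 (SE 0.11, limma adjusted p = 0.0573), and *Gab1*, a docking adaptor, by -0.40 (SE 0.09, limma adjusted p = 0.0706), both under the fold limit. The summed signal of 10 endothelial markers, *Kdr* among them, ranged from 19600 to 24700 in Co mice and from 23500 to 25500 in Pg mice, and without *Kdr* from 17100 to 21900 and from 19000 to 21300. The part of these cells in the *Kdr* difference was not tested.

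Among Gq α subunits and Gq-coupled receptors, 1 of 22 tested genes had a q under 0.1, 4.55% beside 6.25% of all genes. It was the vasopressin receptor *Avpr1a*, at -0.30 (SE 0.08, limma adjusted p = 0.0897). The ends of the list were *Bdkrb2*, a bradykinin receptor, at 0.33 (SE 0.25) and *Adra1a*, an α1-adrenergic receptor, at -0.47 (SE 0.35), which was well above background on 3 Co arrays and 1 Pg array. Neither met the q limit, and both moved with the settings, *Bdkrb2* from 0.15 to 0.53 and *Adra1a* from -0.74 to -0.11. Among 8 tested genes that dampen Gq signaling, RGS proteins and the receptor kinases *Grk2* and *Grk3*, none was called by limma and 3 had an unadjusted p under 0.05, a limit met by 20.3% of all genes. *Rgs16* read 6.92, 6.33, 7.42 and 7.02 in Co mice and 8.41, 7.71, 7.55 and 7.65 in Pg mice, all above the Co mice. It differed by 0.91 (SE 0.26, limma adjusted p = 0.106), and *Rgs5* by -0.21 (SE 0.11).

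Genes that make the PLC substrate had 2 of 17 tested members with a q under 0.1, in opposite directions, 11.8% beside 6.25% of all genes. *Pitpnm1*, a phosphatidylinositol transfer protein, differed by 0.31 (SE 0.07, limma adjusted p = 0.0694) and the kinase *Pi4kb* by -0.25 (SE 0.07, limma adjusted p = 0.0879). The lowest value of this list was *Pip4k2a* at -0.40 (SE 0.20), well above background on 2 Pg arrays and -0.54 to -0.13 over the other settings.

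Downstream, the IP3 side held 1 gene of 14 with a q under 0.1, 7.14% beside 6.25% of all genes. *Itpr3*, an IP3 receptor that releases stored calcium, differed by 0.26 (SE 0.06, limma adjusted p = 0.066). Its list ran from *Ippk* at -0.15 (SE 0.06) to *Inpp4b* at 0.33 (SE 0.13), enzymes that act on inositol phosphates and phosphoinositides. In calcium entry and the calcineurin-NFAT route, none of 23 tested genes was called by limma, with 4 at an unadjusted p under 0.05 beside 20.3% of all genes. *Camk2a*, a calmodulin-dependent kinase, was lowest at -0.54 (SE 0.17) and *Camkk2* highest at 0.29 (SE 0.14).

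On the diacylglycerol side, none of 20 targets and none of 9 diacylglycerol kinases was called by limma, with 5 and 3 at an unadjusted p under 0.05 beside 20.3% of all genes. *Prkch*, a protein kinase C, was highest at 0.94 (SE 0.44). It read 7.31, 7.35, 7.15 and 7.05 in Co mice and 7.03, 9.14, 7.63 and 8.83 in Pg mice. Pg mice 2 and 4 were the highest and Pg mouse 1 the lowest of all arrays, and the difference was 0.62 without Pg mouse 2. *Rasgrp4*, an exchange factor for Ras, was lowest at -0.39 (SE 0.11). The kinases, which remove diacylglycerol, ran from *Dgkb* at -0.52 (SE 0.20), well above background on 1 Pg array and -0.69 to -0.10 over the other settings, to *Dgkz* at 0.25 (SE 0.09).

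**Figure D5:**
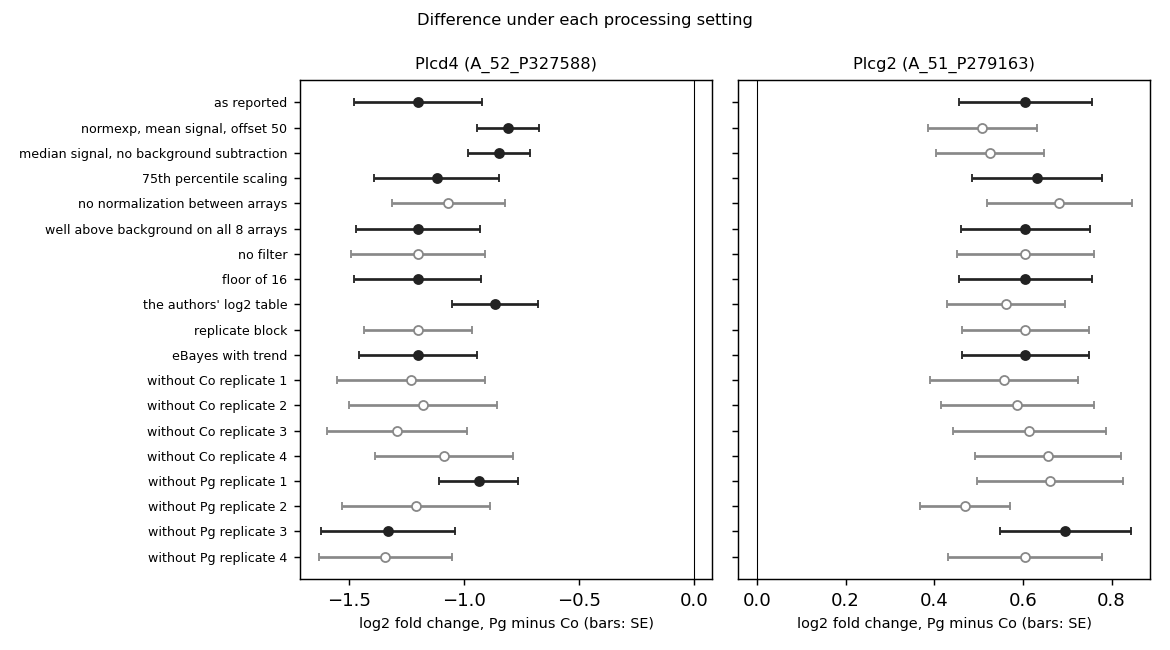
The log2 difference, Pg minus Co, of *Plcd4* A_52_P327588 (left) and *Plcg2* A_51_P279163 (right) is plotted with its standard error (bars) as reported and under each of 18 other settings. Filled symbols are called, and both probes keep their direction in all settings shown.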

How the data were processed

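RNA of 8 mice was hybridised to Agilent one-color arrays with 200 ng of total RNA as input. The authors deposited the output of Agilent Feature Extraction 11.0.1.1, which holds the Cy3 intensity of each spot, background-subtracted but not normalized between arrays, with probe positions on mm9. They also deposited a table of quantile-normalized log2 values, used here as an alternative. Its log2 fold changes, p-values, q-values and score columns (limma's statistics by the authors) were not used.

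The processed intensity of 59305 spots that are not controls was averaged per probe without outlier spots (90 to 150 per array), quantile-normalized, floored at 1 and put on the log2 scale in R 4.3.3 (data.table, version 1.17.8). Probes well above background on at least 4 of 8 arrays were kept. limma 3.58.1 (lmFit, eBayes) tested Pg against Co (n = 4 each), two-sided, and p-values were adjusted by Benjamini-Hochberg across 33819 probes. Following the study's methods, calls had q under 0.1 and fold changes over 1.5. The fit was tested on simulated data.

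Genes, lists and tests were chosen with earlier results of these data known. Values in every array were given for called probes, for the probe of highest mean in each PLC gene and for probes whose groups did not overlap. Pathway genes were named when called or when highest or lowest in their list, all other PLC genes were named, and those with a q under 0.1 and the marker and neighbour genes were added after their values were seen. Array names were used for PLC probes; 18 of 34 were matched by accession to the RefSeq gene table (GRCm38.p6), whose coordinates were not used. Pathway and marker genes were named likewise. No arrays were identical. The study gives n as mice, and the number of arrays limits the precision. Replicate numbers did not pair the samples (correlations of deviations -0.068 to 0.18). The alternatives were 10 settings and 8 fits without an array each.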

Additional observations from a re-analysis of the deposited data

Results flagged for a closer look

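Of 70 groups of 4 arrays examined, for the PLC probes with values in every array and the named pathway genes, 3 had an array whose distance to the nearest other array, as a share of the group's whole range, exceeded the critical value of Dixon's test (shares of 0.843, 0.836 and 0.835). Chance flags about 1 group in 20. *Plcd1* A_51_P239766 read 11.80 in Pg mouse 1 and 11.85 to 11.86 in the other Pg mice. *Dgkb* read 5.14 in Pg mouse 4, the only Pg array on which it was well above background, and 4.36 to 4.48 in the others. *Plcb2* read 8.10 in Pg mouse 1 and 7.97 to 7.99 in the others.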

How the results depend on the processing

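The number of PLC probes called (2) was 4 with probes above background on all 8 arrays and 4 with an intensity trend, adding *Plcb1* A_51_P284665 and *Plcd4* A_55_P2090359 in both. It stayed at 2 with normexp and with the median signal, but there both were *Plcd4* probes. It was 1 with the authors' log2 table (*Plcd4*), and 0 without normalization and 0 without a filter. Leaving out an array gave 0 to 3. The number of pathway genes called (1) was 2 with normexp, 2 with the median signal, 2 with probes above background on all 8 arrays and 2 with the trend, *Rgs16* being added in each. It was 0 without normalization, 0 without a filter and 0 to 2 with an array left out. With the replicate number as a block, 0 PLC probes, 0 pathway genes and 0 of all probes were called, and the numbers did not pair the samples. Genes with probes on both sides of 0 (4) numbered 3 to 6. Over all probes, 546 calls became 94 with normexp, 108 with the median signal, 283 with 75th percentile scaling, 27 without normalization, 318 with the stricter filter, 106 with the authors' table and 3 to 698 with an array left out. Higher calls were 106 and lower calls 440, against 137 and 146 with 75th percentile scaling, 66 and 28 with normexp, 75 and 33 with the median signal, 20 and 7 without normalization and 60 and 46 with the authors' table. Differences near 0 turned in sign: *Plce1* A_55_P2637356 to 0.013 and *Plcl1* to 0.028 without normalization, *Plcd4* A_55_P2090364 to -0.00098 with the authors' table, *Plcxd3* to 0.0093 with the median signal and 0.0092 with the authors' table. Leaving out an array turned *Plcg1* A_52_P148678 (-0.092 to 0.023), *Plcl1* (-0.26 to 0.084) and *Plcl2* (-0.065 to 0.018) in some fits. Of 250 values of the PLC probes given by array, 211 kept direction and call. The cause of these changes was not tested. *Plcd4* A_55_P2721360, well above background on 4 arrays, had an SE of 0.56.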
